A study of Mus musculus with 11 samples.

Results

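Kinesins, the motor proteins that walk along microtubules, were followed in irradiated and untreated mouse small cell lung cancer (SCLC) cells. The members were all protein-coding genes whose symbol is Kif followed by a digit, which gave 39 of 35056 genes in the files. One of them, Kif1bp, encodes a protein that binds kinesins and is not itself a motor. The RNA came from KP1 cells, a mouse SCLC line with mutant Rb and p53 grown in culture as a single line. The control group was 2 libraries from untreated cells, numbered 2 and 3, and the irradiated group was 3 libraries from cells given 5 Gy and collected 24 h later, numbered 1, 2 and 3. The labels do not say whether the libraries of a group came from separate cultures, so p-values measure only the spread between these libraries, which may be technical. The study's single-cell samples were left out.

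Each kinesin carries a motor domain that hydrolyses ATP and a tail that chooses its cargo. Mitotic kinesins build the spindle, move chromosomes and split the cell, and their transcripts accumulate in G2 and mitosis and fall when cells leave the cycle. Transport kinesins carry vesicles, mitochondria and cilium components, and several are abundant in neurons and in neuroendocrine cells, the cell type that SCLC resembles. The comparison asked how transcripts of the mitotic and of the neuronal transport kinesins stood 24 h after radiation.

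Library totals ran from 21185956 to 31036317 estimated reads. The libraries also differed in how long the sequenced transcripts were. Weighted by reads, the mean transcript length was 5463 bases in control 2 and 4729 bases in control 3, against 3625 to 3998 bases in the irradiated libraries. The 2 controls differed from each other, and with only 2 of them neither can be named the odd one. The values without control 2 are given beside most of the calls that ended when it was left out. The neuroendocrine markers Chga, Insm1 and Ncam1 were present in all 5 libraries. By the test described below, Ncam1 was lower after radiation (log2 fold change -1.20, edgeR adjusted p = 0.0227) and the neuroendocrine markers Syp (0.64, 0.0315) and Calca (1.18, 0.0474) were higher, and all 3 calls ended without control 2 (adjusted p = 0.158, 0.177 and 0.216). The part of these markers in the kinesin results was not tested. Levels are given as TPM, which scales transcripts for their length and for library size. Markers of leukocytes, fibroblasts, macrophages and endothelium were low. Ptprc was at most 0.498 TPM and Adgre1 and Col1a2 at most 0.0564, Cd68 and Pecam1 were at most 6.62 TPM, and Col1a1 was at 13.5 TPM in control 2 and at most 0.104 TPM elsewhere. Of these 6 markers 3 were too low to be tested, and the other 3 did not pass the test described below.

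Of the 39 genes, 33 had enough reads to be tested. Transcripts of 15 of the 33 fell after radiation at an adjusted p under 0.05 and 0 rose (quasi-likelihood fit in edgeR, Benjamini-Hochberg adjusted over 14106 genes). Among all tested genes 13.0% were called lower and 12.7% higher. At an unadjusted p under 0.05, 20 kinesins were lower and 1 was higher, against 20.1% and 20.9% of all genes, and DESeq2 called 19 lower and 0 higher, where it called 16.2% of all genes lower and 17.1% higher. The median log2 fold change of the 33 was -0.48, beside 0.017 for all tested genes. Past a log2 fold change of 1.5 in size as well, 3 kinesins were lower, Kif14, Kif24 and Kif26b, beside 1.90% of all genes. Normalized levels of the irradiated libraries lay below both controls for 22 of the 33 genes (29.3% of all tested genes) and above both for 2 (30.1%). The count of 15 dropped to 4 without control 2, where 1.20% of all genes were called lower, to 9 without irradiated 1 (6.50%) and to 9 without irradiated 2 (5.98%). It was 13 without control 3 (13.4%) and 13 without irradiated 3 (10.5%), so that calls became fewer over all genes in the same fits, apart from the one without control 3. Past both thresholds the 3 became 0 without control 2, where Kif14 stood at -1.26 and Kif24 at -1.26, both still with an adjusted p under 0.05. The 4 genes called lower in each of these fits were Kif14, Kif15, Kif20b and Kif24. The replicates behind each value are few, since 2 libraries against 3 cannot reach an exact two-sided permutation p below 0.1, so the model across all genes carried the tests. In bulk RNA, fewer cells of a type and less RNA per cell cannot be told apart.

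In untreated cells, summed over all transcripts of a gene, Kif23 was at 190 ± 17.1 TPM (SD, n = 2), the highest mean. Kif1a followed at 174 ± 53.1 TPM, Kif2a at 148 ± 10.3 TPM, Kif11 at 143 ± 22.1 TPM and Kif5b at 126 ± 9.42 TPM. Each of these differed from its neighbour in the order by less than the larger of their SDs, so their order is not resolved, and mitotic and transport motors were mixed at the top. With protein-coding transcripts alone Kif23 was at 91.4 ± 5.83 TPM, in place 7, and Kif1a at 169 ± 55.6 TPM had the highest mean. In irradiated cells the means over all transcripts were 87.4 ± 7.39 TPM for Kif22 (SD, n = 3), 83.7 ± 14.6 TPM for Kif2a, 76.7 ± 5.39 TPM for Kif20a and 66.1 ± 12.2 TPM for Kif23, and each of the 7 highest kinesins differed from the next of them by less than the larger SD. At the other end, Kif2b had 0 reads in every library, which allows up to 3 reads per library, and Kif6, Kif9, Kif12, Kif26a and Kif28 had at most 27 reads in any library and were not tested. TPM values drop more than the edgeR fold changes do. The median of all tested genes was -0.24 in log2(TPM + 1) against 0.017 in edgeR, a shift of -0.26, so TPM is used below for levels and edgeR for change.

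**Figure D1:**
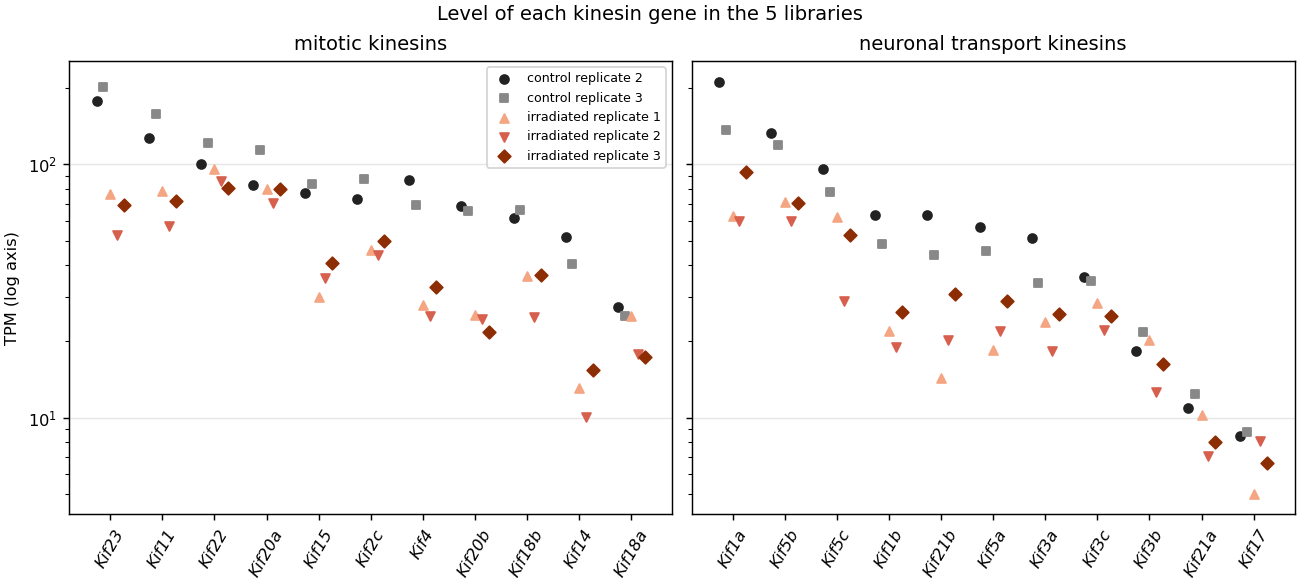
TPM (log axis) of the 11 mitotic and the 11 neuronal transport kinesins, with 1 point for each of the 5 libraries and genes ordered by their mean control level. Kif23 is highest among the mitotic motors, with controls at 178 and 202 TPM and irradiated libraries from 52.8 to 76.5 TPM, whereas the points of Kif22, Kif20a and Kif18a lie closer together.

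Mitotic kinesins fell in part. Of the 11, 7 were called lower and 0 higher, beside 13.0% and 12.7% of all genes, with a median log2 fold change of -0.76. In 8 of the 11 all irradiated libraries lay below both controls in normalized counts, as in 29.3% of all tested genes. At an unadjusted p under 0.05, 8 were lower and 0 higher (20.1% and 20.9% of all genes). DESeq2 called 8 lower and 0 higher (16.2% and 17.1%). The 7 were Kif23, Kif20b, Kif14, Kif11, Kif15, Kif4 and Kif18b, and the 4 that did not pass the test were Kif20a, Kif22, Kif18a and Kif2c. Without irradiated 2 the 7 became 5, beside 5.98% of all genes. The median log2 fold change of the 11 was -0.87 without control 2 and -0.60 without control 3.

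Motors of the central spindle and cytokinesis came first. Kif23 (chr9:61915905-61946774, GRCm38), the motor subunit of centralspindlin, which bundles midzone microtubules, was at 178 and 202 TPM in the controls and at 76.5, 52.8 and 69.1 TPM in irradiated libraries 1, 2 and 3. Kif20b (chr19:34922361-34975745), a motor of the midbody, was at 68.2 and 65.5 TPM in the controls and at 25.4, 24.5 and 21.8 TPM after radiation. Kif14 (chr1:136466343-136531511), which recruits citron kinase to the midbody, went from 51.8 and 40.4 TPM to 13.2, 10.1 and 15.5 TPM. For these 3 genes the highest irradiated library was far below the lower control, and the groups did not overlap.

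In edgeR, Kif14 fell by 1.51 on the log2 scale (SE 0.19, adjusted p = 0.00825), Kif20b by 0.99 (SE 0.13, adjusted p = 0.00825) and Kif23 by 0.97 (SE 0.16, adjusted p = 0.00919). Without control 2 the log2 fold change of Kif23 was -0.92 (adjusted p = 0.0540). Kif20a, which carries the chromosomal passenger complex to the midzone, differed from these. It was at 83.2 and 113 TPM in the controls and at 79.7, 70.5 and 79.98 TPM after radiation, and the irradiated libraries lay close under control 2. Its log2 fold change was -0.067, with a 95% confidence interval from -0.44 to 0.31 and an edgeR adjusted p of 0.79, and the sign turned with the library size alone (0.0085). Exons of Cdc23 on the opposite strand cover 29.3% of the exonic bases of Kif20a. Genes on the opposite strand likewise cover 15.1% of the exonic bases of Kif4 (Pdzd11) and 19.2% of those of Kif2a (Dimt1). The sources used here do not state whether the libraries kept strand, so reads from shared bases may belong to either gene.

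Of the motors that hold the spindle poles apart, Kif11 (chr19:37376403-37421859), the bipolar motor known as Eg5 that slides antiparallel microtubules, was at 127 and 158 TPM in the controls and at 78.6, 57.3 and 71.6 TPM in the irradiated libraries. Kif15 (chr9:122951046-123018733), which can keep a spindle bipolar alongside Kif11, was at 77.3 and 83.6 TPM and then at 29.9, 35.6 and 40.8 TPM. Both sets of irradiated libraries lay below both controls. Kif15 fell by 1.15 (SE 0.14, adjusted p = 0.00825) and Kif11 by 0.76 (SE 0.17, adjusted p = 0.0180) in edgeR. Kif11 lost its call in 3 of the 5 fits that each left out 1 library, with adjusted p-values of 0.0546 without control 2, 0.0541 without control 3 and 0.0686 without irradiated 2.

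Chromosome motors were split. Kif4 (chrX:100625737-100727214), a chromokinesin of chromosome arms and the midzone, was at 86.9 and 68.9 TPM in the controls and at 27.9, 25.3 and 32.8 TPM after radiation, and fell by 1.14 (SE 0.17, edgeR adjusted p = 0.00919), or by 1.00 without control 2 (adjusted p = 0.0536). Kif22, the chromokinesin that pushes arms away from the poles, was at 101 and 121 TPM and at 95.5, 85.7 and 81.0 TPM. Kif18a, which damps chromosome oscillation at microtubule plus ends, was at 27.3 and 25.3 TPM and at 25.2, 17.9 and 17.3 TPM. The irradiated libraries of Kif22 and Kif18a lay below both controls in TPM, with means at 78.9% and 76.6% of the control mean, and overlapped them in the normalized counts. In edgeR the log2 fold change of Kif22 was 0.0059 (95% confidence interval -0.38 to 0.40) and that of Kif18a was -0.032 (-0.48 to 0.42), and the sign of each changed under several scalings, among them DESeq2 for Kif22 (-0.0060) and the upper-quartile factors for Kif18a (0.025).

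Microtubule depolymerases of mitosis were the remaining pair. Kif18b (chr11:102905529-102925124), which shortens astral microtubules, was at 61.6 and 66.1 TPM in the controls and at 36.4, 25.0 and 36.5 TPM in the irradiated libraries. Kif2c, the centromeric depolymerase known as MCAK, was at 72.8 and 87.2 TPM and at 45.7, 43.8 and 50.03 TPM. The groups did not overlap for either gene. Kif18b fell by 0.59 (SE 0.17, adjusted p = 0.0384), while Kif2c had a log2 fold change of -0.40 (SE 0.14) that did not pass edgeR's test (adjusted p = 0.0661). Without 1 library the call of Kif18b was lost in 4 of 5 fits, among them those without control 2 and without control 3, and it remained without irradiated 1. Its log2 fold change lay between -0.71 and -0.46 over the 5 fits.

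In the promoters of mitotic genes a short element called the cell cycle homology region (CHR) binds the MuvB complex, which represses the gene outside G2 and mitosis, and it often lies near a CCAAT box. RefSeq promoter windows of 300 bases on GRCm38.p6, from 250 bases before to 50 after the start, were searched on both strands. The CHR was searched as TTTGAA, which reads TTCAAA from the opposite strand, and as the palindrome TTCGAA, and the CCAAT box as CCAAT, which reads ATTGG from the opposite strand. These windows were found for 31 of the 39 genes and not for Kif13b, Kif19a, Kif1bp, Kif20a, Kif21b, Kif28, Kif5a and Kif5b. The CHR letters were in the window of 9 of 10 mitotic kinesins, of 1 of 8 transport kinesins and of 21.7% of 27025 genes in the table. Within 50 bases of the start, a narrower window chosen after the matches were seen, 7 of the 10 mitotic kinesins held them, beside 6.12% of all genes. CCAAT was found in 6 of the 10 mitotic and 3 of the 8 transport genes, against 41.1% of all genes. A match is a description of the letters and no evidence of binding. The matches near the start are shown for the mitotic kinesins and for Kif24, in windows of 30 bases read 5′ to 3′ on the strand of the gene, with the CHR letters in capitals:
Kif23, chr9:61946780-61946809, minus strand: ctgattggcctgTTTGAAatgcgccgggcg
Kif18b, chr11:102925104-102925133, minus strand: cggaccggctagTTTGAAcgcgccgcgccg
Kif20b, chr19:34922353-34922382, plus strand: gagccgccattgTTTGAAtttgaaaaccgg
Kif4, chrX:100626072-100626101, plus strand: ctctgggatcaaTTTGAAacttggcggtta
Kif15, chr9:122951050-122951079, plus strand: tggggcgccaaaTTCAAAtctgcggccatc
Kif11, chr19:37376351-37376380, plus strand: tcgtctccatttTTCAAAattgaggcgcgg
Kif22, chr7:127042420-127042449, minus strand: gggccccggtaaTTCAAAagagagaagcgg
Kif24, chr4:41464857-41464886, minus strand: tcggcgcgcgcgTTCGAActggcgcttgtg

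In Kif20b another copy of the letters follows the first directly and is left in lower case, with matches 8 and 14 bases after the start. CCAAT or ATTGG was also in the windows of Kif23 and Kif4, nearest at 7 and 5 bases before the start. Kif18b, Kif11, Kif22 and Kif24 held these letters too, nearest at 30, 45, 54 and 74 bases before. Of the 7 mitotic genes with a CHR match near the start 6 were called lower, and Kif22 was not. Beside this stand 7 called of all 11 mitotic kinesins and 13.0% of all genes. A link between the letters and the fall was not tested. Farther out, Kif14 had a CHR match 228 bases before its start and Kif2c had one at 103 bases before, while Kif18a had neither motif in its window. Among transport kinesins the one CHR match was in Kif1a, 44 bases before one of its starts. Among depolymerases, cilium motors and others, 3 of 10 genes held the letters, and of the other carriers 0 of 3. The 3 genes were Kif24, Kif26b, 9 bases before its start, and Kif27, 73, 89 and 191 bases before its start. The near matches of Kif1a and Kif26b are not among the sequences shown.

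**Figure D2:**
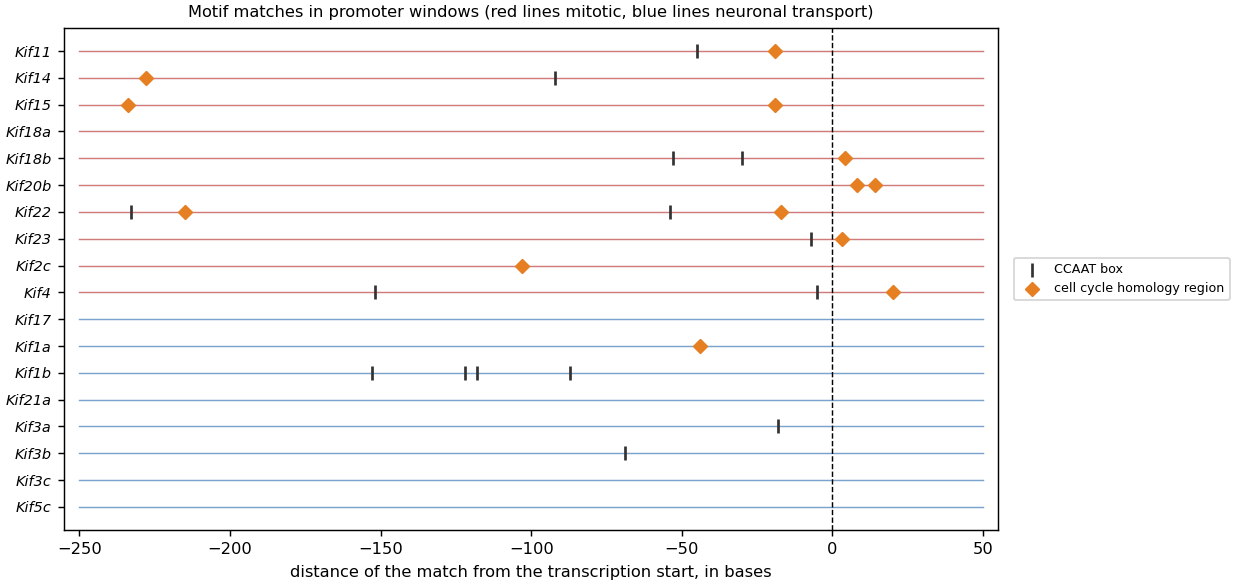
Position of CHR matches (diamonds) and CCAAT matches (bars) in the promoter windows of 10 mitotic (red lines) and 8 neuronal transport (blue lines) kinesin genes, in bases from the transcription start (dashed line), with matches on both strands and all listed starts drawn on 1 line per gene. Diamonds sit within 50 bases of the start in 7 mitotic genes and in Kif1a.

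Of the 11 neuronal transport kinesins, 4 fell, Kif1a, Kif1b, Kif5a and Kif21b, and 0 rose, beside 13.0% and 12.7% of all genes. Their median log2 fold change was -0.52. At an unadjusted p under 0.05, 6 were lower and 0 higher (20.1% and 20.9% of all genes). DESeq2 called 6 lower and 0 higher (16.2% and 17.1%). In 7 of the 11 the irradiated libraries lay below both controls in normalized counts, as in 29.3% of all tested genes. Without irradiated 1 or without irradiated 2 edgeR called 1 of the 11 lower, beside 6.50% and 5.98% of all genes. Without control 2 the median log2 fold change of the 11 was -0.39, and the values of the 4 genes without it are given below.

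Among the vesicle and mitochondrion carriers of the kinesin-3 family, Kif1a (chr1:93015464-93101951), which moves synaptic vesicle precursors, was at 212 and 137 TPM in controls 2 and 3 and at 62.5, 59.5 and 93.6 TPM in the irradiated libraries. Kif1b (chr4:149176319-149307693), whose splice forms carry mitochondria or synaptic vesicle precursors, was at 62.9 and 48.5 TPM and at 22.0, 19.1 and 26.2 TPM. Both were below the controls in all irradiated libraries, and both were higher in control 2 than in control 3. Kif1a fell by 0.91 (SE 0.23, adjusted p = 0.0267) and Kif1b by 0.89 (SE 0.17, adjusted p = 0.0112) in edgeR. Without control 2 the log2 fold change of Kif1a was -0.53 (adjusted p = 0.181) and that of Kif1b was -0.69 (adjusted p = 0.0725). The call of Kif1a also ended without irradiated 1 (adjusted p = 0.0880) and without irradiated 2 (0.0791).

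The kinesin-1 heavy chains carry vesicles, mitochondria and neurofilaments along axons. Kif5a (chr10:127225696-127263348), a form of neurons, was at 56.8 and 45.3 TPM in the controls and at 18.6, 22.1 and 29.0 TPM after radiation. Kif5b, the form found in most cells, was at 132 and 119 TPM and at 71.3, 59.5 and 70.5 TPM. Kif5c, also a form of neurons, was at 95.7 and 77.9 TPM and at 61.8, 29.0 and 52.7 TPM. All 3 were lower in TPM in each irradiated library, although Kif5c overlapped between groups in the normalized counts. Kif5a fell by 0.75 (SE 0.19, adjusted p = 0.0276), a call that ended without control 2 (log2 fold change -0.58, adjusted p = 0.156), without irradiated 1 (0.0726) and without irradiated 2 (0.0700), while Kif5b at -0.43 (SE 0.15, adjusted p = 0.0601) and Kif5c at -0.39 (SE 0.22, adjusted p = 0.223) did not pass edgeR's test.

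Kinesin-2 motors, which drive transport into cilia and along axons, were not called in the fit of all 5 libraries. Kif3a was at 51.3 and 34.1 TPM in the controls and at 23.8, 18.4 and 25.7 TPM in the irradiated libraries, with a log2 fold change of -0.66 (SE 0.22, edgeR adjusted p = 0.0568). That value rested on the controls, at -0.23 (adjusted p = 0.504) without control 2 and -0.97 (adjusted p = 0.0100) without control 3. Its partner Kif3b was at 18.3 and 21.8 TPM and at 20.2, 12.6 and 16.3 TPM. Kif3c (chr12:3365132-3406494), which can replace Kif3b, was at 36.0 and 34.7 TPM and at 28.4, 22.3 and 25.1 TPM. Kif3b overlapped between groups, and Kif3c was lower in TPM and overlapped in normalized counts. Kif17, the homodimeric kinesin-2, was at 8.45 and 8.80 TPM and at 5.01, 8.07 and 6.62 TPM. The log2 fold changes were -0.0054 for Kif3b (95% confidence interval -0.46 to 0.44), 0.051 for Kif3c (-0.28 to 0.38) and 0.028 for Kif17 (-0.62 to 0.68), none passed edgeR's test, and the sign of each turned under some of the scalings, for example with the GC content offset (0.044, -0.018 and -0.23).

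Kinesin-4 motors that slow microtubule growth in neurons were the last pair. Kif21b (chr1:136131389-136177998) was at 62.8 and 43.9 TPM in the controls and at 14.3, 20.4 and 30.8 TPM after radiation, and fell by 0.93 (SE 0.29, edgeR adjusted p = 0.0466). Kif21a was at 10.95 and 12.4 TPM and at 10.3, 7.04 and 8.01 TPM, with a log2 fold change of -0.52 (SE 0.23) that did not pass edgeR's test (adjusted p = 0.126). Both had every irradiated library below the controls. The call of Kif21b was lost without control 2 (log2 fold change -0.60, adjusted p = 0.261), without irradiated 1 (0.104) and without irradiated 2 (0.103).

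The 4 carriers outside the neuronal list work in endosome and Golgi traffic. Kif13b, at 26.3 and 18.2 TPM in the controls and at 8.11, 6.95 and 11.3 TPM in the irradiated libraries, fell by 1.07 (SE 0.23, edgeR adjusted p = 0.0159). Its log2 fold change was -0.66 without control 2 (adjusted p = 0.122), -1.03 without irradiated 1 (adjusted p = 0.0566) and -0.27 with the transcript length offset described below (adjusted p = 0.288). Kif13a, at 40.9 and 31.8 TPM and then 17.8, 14.1 and 22.9 TPM, fell by 0.48 (SE 0.15, adjusted p = 0.0457), a call lost in each of the 5 fits without 1 library. Groups did not overlap for these genes. Kif16b was at 10.96 and 11.8 TPM and at 7.67, 6.76 and 7.40 TPM, and Kif1c was at 8.78 and 8.26 TPM and at 3.62, 4.40 and 6.77 TPM, and neither passed the edgeR test (log2 fold changes -0.43 and -0.24, adjusted p = 0.0950 and 0.459).

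In the last group, of depolymerases, cilium motors and others, 6 of 12 genes could be tested and 2 fell, beside 13.0% of all genes. Kif24 (on chromosome 4), a depolymerase of the mother centriole that holds back cilium growth, was at 27.6 and 20.1 TPM in the controls and at 6.88, 7.31 and 9.72 TPM in the irradiated libraries, and fell by 1.52 (SE 0.20, edgeR adjusted p = 0.00825). Kif26b, an atypical kinesin, was far less abundant, at 4.53 and 2.57 TPM and at 0.819, 0.883 and 1.38 TPM. It fell by 1.59 (SE 0.34, adjusted p = 0.0157), and its log2 fold change was -0.99 without control 2 (adjusted p = 0.124) and -1.40 without irradiated 1 (adjusted p = 0.0507). Kif2a, a depolymerase of spindle poles and axon branches, was at 155 and 141 TPM and at 92.8, 66.9 and 91.4 TPM, with a log2 fold change of -0.47 (SE 0.15, adjusted p = 0.0570). Kif19a, a cilium-tip depolymerase, was at 12.7 and 12.5 TPM and at 10.9, 11.02 and 11.3 TPM, yet its normalized counts were above both controls in every irradiated library (log2 fold change 0.54, SE 0.21, edgeR adjusted p = 0.0895). Its direction therefore depends on the scale. Kif7, a scaffold of Hedgehog signalling in cilia, was at 3.58 and 6.07 TPM and at 1.45, 3.63 and 4.07 TPM, and Kif27 lay between 1.44 and 3.24 TPM, and neither passed the test. Kif1bp, the binding protein, was at 33.9 and 45.5 TPM and at 39.1, 37.4 and 38.8 TPM (log2 fold change 0.27, edgeR adjusted p = 0.223).

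Transcript length was tied to the fold change across the whole transcriptome, which bears on the 2 lists unequally. The tested genes were ordered by length and cut into 10 groups of equal size. Their median log2 fold change went from 0.77 in the shortest group to -0.78 in the longest, where 53.2% of genes were called lower. Transport kinesins were long, with a median of 5635 bases against 3152 bases for the mitotic kinesins and 2502 bases for all tested genes, and 9 of the 11 fell in the longest group. Set against the median of its own length group, the log2 fold change was lower for 9 of 11 mitotic kinesins, by a median of -0.49, and for 4 of 11 transport kinesins, with a median difference of 0.035. Kif23 lay 1.25 below its length group (difference -1.25), Kif15 differed by -1.18 and Kif24 by -1.42, whereas Kif3c and Kif3b lay above theirs, by 0.83 and 0.77. These differences depend on how the lengths of a gene's transcripts are weighted. For Kif23, Kif15 and Kif24 the lengths used, weighted by TPM, were 1920, 2783 and 2932 bases. Weighted by reads they were 2982, 4570 and 4780 bases, which would place these genes nearer to the long groups.

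**Figure D3:**
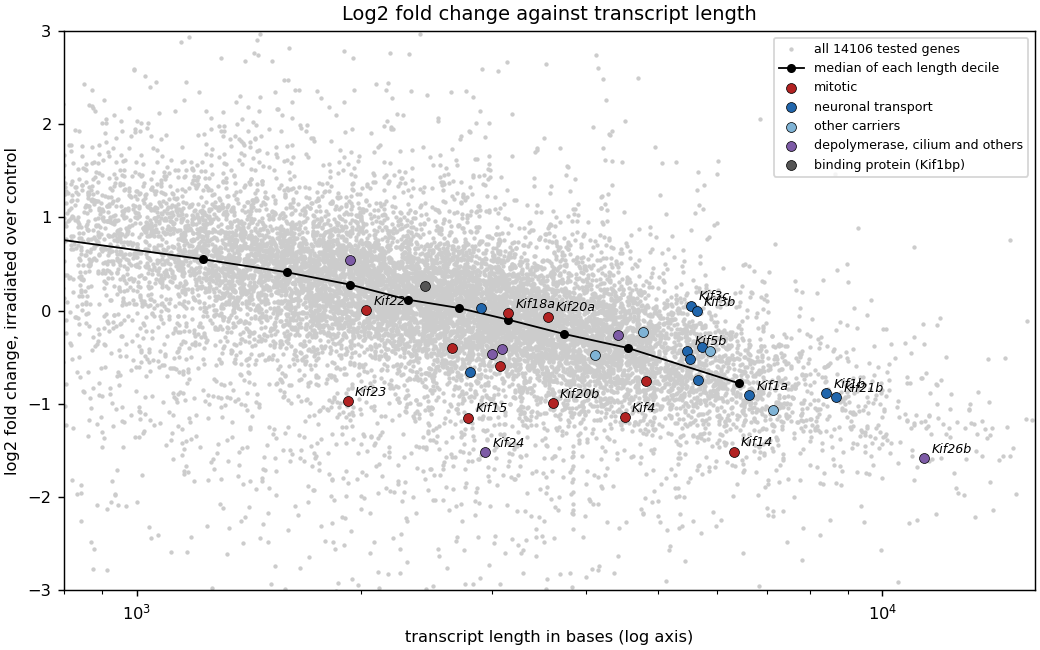
Log2 fold change in edgeR (y axis) against transcript length in bases (x axis, log scale) for the kinesins, colored by group, and for all 14106 tested genes in grey, with the median of each length group as a black line. Most transport kinesins follow the line at its long end, Kif3b and Kif3c lie above it, and Kif23, Kif15, Kif24 and Kif14 lie below it. The axes leave out 886 genes (6.28%) beyond a log2 fold change of 3 in size, shorter than 800 bases or longer than 16000 bases.

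A slant with length was also seen over all genes between the 2 control libraries, where no treatment differed. The log2 ratio of control 2 to control 3 had a median of 0.21 over the transport kinesins, 8 of 11 being higher in control 2, and of -0.17 over the mitotic kinesins, 4 of 11 being higher. Over all tested genes the median was -0.0052, and it ran from -0.20 in the shortest length group to 0.30 in the longest. The mitotic kinesins did not follow this slant, since the length group that holds their median of 3152 bases stood at 0.030. The 21 mitotic regulators described below had a median of -0.34, 4 being higher in control 2. The controls thus also differed in mitotic transcripts, and the cause was not tested. Kif26b differed most among the kinesins, by 0.96, followed by Kif3a at 0.73, Kif13b at 0.70 and Kif1a at 0.65. Kif7 was the kinesin most in favour of control 3, at -0.74. Irradiated library 3 was set against the mean of irradiated libraries 1 and 2. The median log2 ratio was 0.064 for transport kinesins, 7 of 11 being higher in library 3, and -0.014 for mitotic kinesins, 4 of 11 being higher. Single long genes differed more, Kif21b by 0.73, Kif26b by 0.61 and Kif1a by 0.47, and the 4 other carriers had a median of 0.29. Medians by length group were not taken for the irradiated libraries.

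**Figure D4:**
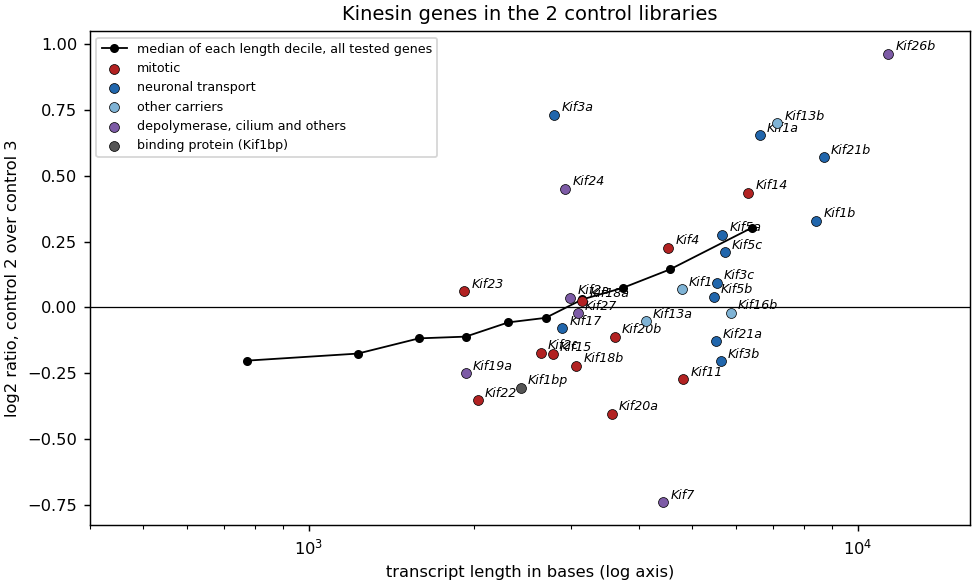
Log2 ratio of normalized counts in control 2 over control 3 (y axis) against transcript length in bases (x axis, log scale), 1 point per tested kinesin, with the median of each length group of all tested genes as a black line. The line climbs from -0.20 to 0.30, and Kif26b, Kif3a, Kif13b and Kif1a lie between 0.65 and 0.96.

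With an offset that removes the trend on length from each library, 6 kinesins were called lower, beside 3.64% of all genes, and 1 higher, beside 4.25%. The 6 were Kif23 at a log2 fold change of -1.19 (SE 0.15, adjusted p = 0.0187), Kif15 at -1.11 (SE 0.12, adjusted p = 0.0187), Kif14 at -0.81 (SE 0.13, adjusted p = 0.0237), Kif20b at -0.75 (SE 0.12, adjusted p = 0.0237), Kif4 at -0.71 (SE 0.14, adjusted p = 0.0286) and Kif24 at -1.45 (SE 0.19, adjusted p = 0.0187), all by edgeR. Of these, 5 are mitotic. The value of Kif23 depended on its length, and with the length weighted by reads (2982 against 1920 bases) it was -0.98, close to the -0.97 without an offset. With that weighting Kif15 was at -0.82 and Kif24 at -1.15, both smaller in size than with lengths weighted by TPM. Kif11 at -0.28 (95% confidence interval -0.68 to 0.12), Kif18b at -0.48 and Kif2c at -0.40 did not pass. Of the transport kinesins 0 were called lower with the offset (1 at an unadjusted p under 0.05, Kif3a) and Kif3c was called higher (0.65, SE 0.14, edgeR adjusted p = 0.0374). Kif1b stood at 0.016 (95% confidence interval -0.25 to 0.29), Kif1a at -0.16 (-0.54 to 0.22), Kif5a at -0.13 (-0.49 to 0.23) and Kif21b at 0.00013 (-0.54 to 0.54). Weighting the length of each gene by reads in place of TPM, which gives short fragments less weight (4570 against 2783 bases for Kif15), left 5 lower, beside 1.81% of all genes, and 1 higher, beside 2.41%, and Kif20b lost its call (-0.55, adjusted p = 0.0566). With lengths weighted by TPM the median was -0.48 over the mitotic and 0.067 over the transport kinesins, beside 0.042 over all tested genes, and with lengths weighted by reads it was -0.53 and 0.024.

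With the offset, the count of 6 became 0 without control 2, without irradiated 1 and without irradiated 2, but in those fits edgeR called 1, 0 and 2 of all genes lower, so the calls were lost across the transcriptome. At an unadjusted p under 0.05 the same fits had 9, 10 and 7 kinesins lower, beside 7.58%, 12.2% and 9.41% of all genes. The count was 7 without control 3 (5.70% of all genes) and 5 without irradiated 3 (1.75%). The log2 fold change of Kif23 stayed between -1.31 and -1.07 over those 5 fits and that of Kif15 between -1.16 and -1.02. Kif3c lost its call in the same 3 fits. Antisense transcripts annotated opposite to Kif3c share 35.3% of its exonic bases, and its reads cannot be told apart from theirs. Radiation, control 2 and the length trend move together in these 5 libraries, and the part of each in the fall of the long transport kinesins was not tested.

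**Figure D5:**
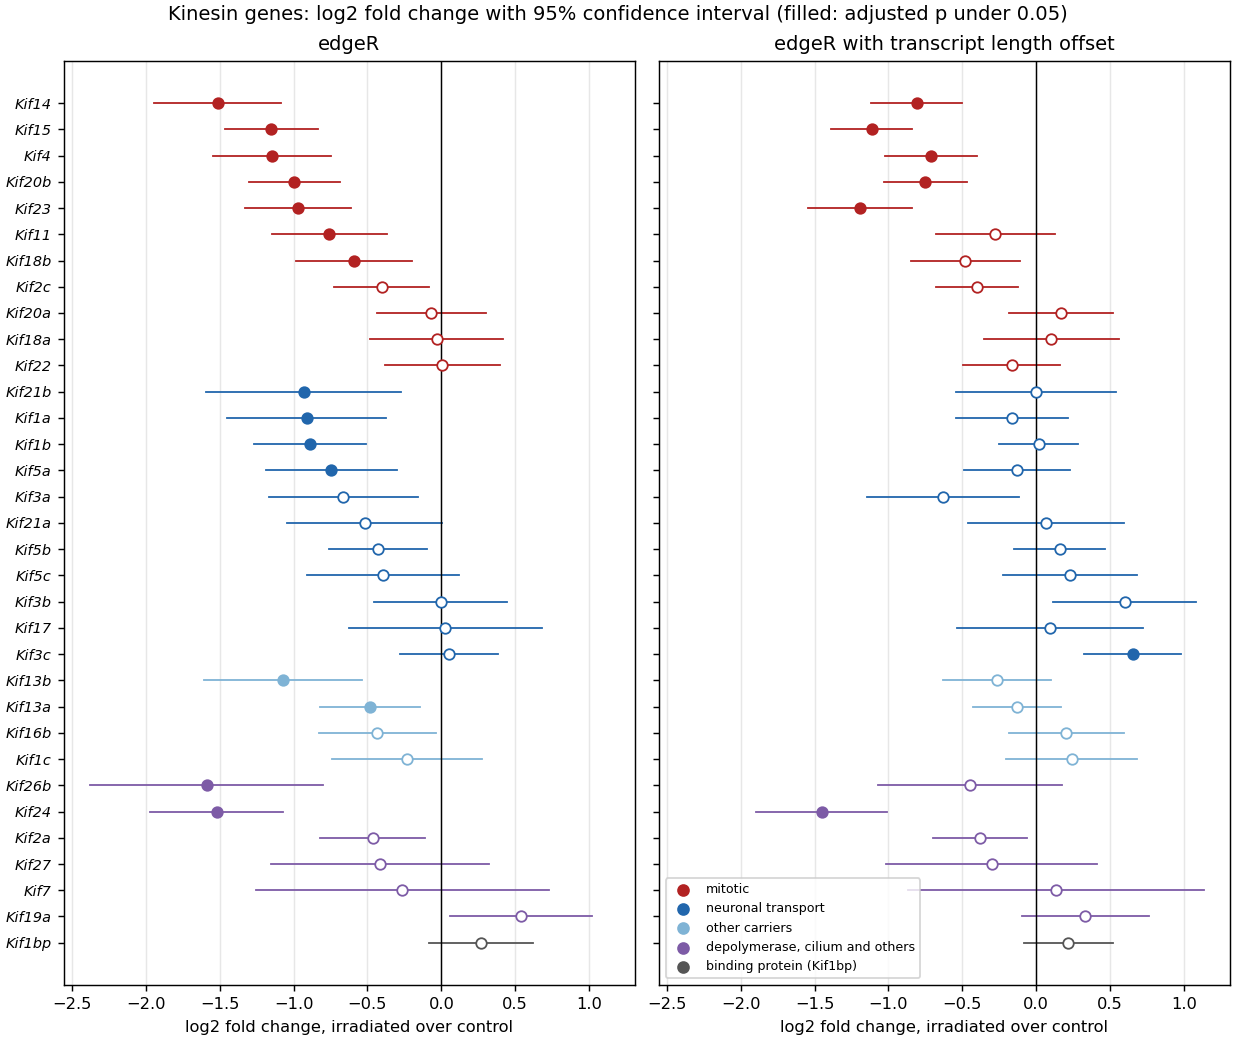
Log2 fold change of the 33 tested kinesins, irradiated over control, with 95% confidence intervals as bars, in edgeR (left) and with the transcript length offset (right), where filled points have an adjusted p under 0.05 and colors mark the groups. On the right, 5 mitotic kinesins and Kif24 remain filled below 0, the 4 transport kinesins that were filled on the left sit at or near 0, and Kif3c is filled above 0.

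Mitotic against transport kinesins, compared as sums of TPM within each library, gave a like reduction. The 11 mitotic kinesins summed to 935 and 1032 TPM in the controls and to 534, 448 and 516 TPM in the irradiated libraries, 50.8% of the control mean. The 11 transport kinesins summed to 747 and 583 TPM and to 338, 278 and 385 TPM, 50.1% of the control mean. Neither sum overlapped between the groups. The mitotic sum was 1.25 and 1.77 times the transport sum in the 2 controls and 1.58, 1.61 and 1.34 times in the irradiated libraries, so the ratio overlapped between the groups and its mean was 1.51 in both. The TPM sums therefore did not separate the 2 lists, while the medians of the edgeR fold changes with the length offset stood apart, and no test over members was made of either. Unlike the offset, TPM does not remove the trend on length between libraries, and most transport kinesins were long. The median of all tested genes also shifted by -0.26 on the TPM scale, so the 2 comparisons are not alike.

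Transcripts within the genes showed how far a gene value rested on 1 isoform. Kif11 has a single annotated transcript, of 22 exons and 4819 bases, so its values involve no choice of isoform. For Kif23 the transcript of 23 exons and 3398 bases was at 68.2 and 61.2 TPM in the controls and at 34.5, 25.9 and 30.4 TPM after radiation, and short transcripts of the locus made up the rest, among them one of 3 exons and 392 bases at 42.9 and 43.4 TPM and at 21.7, 12.5 and 18.1 TPM. The long and the short form were thus both lower in every irradiated library. Kif14 was led by a transcript annotated as a target of nonsense-mediated decay, 23.6 and 22.3 TPM in the controls and 4.59, 3.89 and 6.19 TPM after radiation, and its coding transcript of 29 exons was at 19.5 and 13.3 TPM and at 6.03, 4.604 and 6.02 TPM. In Kif15 the coding transcript of 35 exons was at 39.4 and 46.7 TPM and at 16.2, 15.3 and 16.8 TPM, and a coding fragment of 4 exons and 417 bases was at 0 in both controls and at 7.14, 4.81 and 13.6 TPM after radiation. The fragment rests on at most 32.1 estimated reads a library.

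Among transport motors, Kif1b has a long form of 49 exons and 10233 bases and a shorter form of 21 exons and 6991 bases. The long form was at 32.2 and 28.7 TPM in the controls and at 17.6, 11.4 and 15.6 TPM in the irradiated libraries, and the shorter form was at 18.1 and 14.7 TPM and at 3.45, 6.44 and 9.19 TPM. Both were lower in all irradiated libraries, so the fall was not in 1 splice form alone. Kif5a shifted in makeup, since the form of 29 exons and 6295 bases held 59.0% and 73.3% of its TPM in the controls and 82.6%, 81.1% and 84.9% after radiation. Kif3c was carried by a form of 8 exons and 6791 bases that changed little, at 21.5 and 19.2 TPM and at 18.1, 17.2 and 18.6 TPM. With only the transcripts annotated as protein-coding, the mitotic sum in irradiated cells was 57.6% of the control mean and the transport sum was 52.5%.

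The 5 kinesins without a Kif number were tested beside the members, and Cenpe, the kinetochore motor that brings chromosomes to the spindle equator, fell past both thresholds. It was at 112 and 72.3 TPM in the controls and at 18.1, 15.1 and 22.0 TPM in the irradiated libraries (log2 fold change -2.004, SE 0.22, edgeR adjusted p = 0.00825), and with the length offset at -1.15 (adjusted p = 0.0187). The other 4 were not called without the offset, and with it Kifc1, a minus-end motor of the spindle, was called lower at -0.48 (adjusted p = 0.0465), a call that ended in each of the 5 fits without 1 library (adjusted p from 0.0678 to 0.149) and with lengths weighted by reads (0.0586). Of 21 genes of mitotic regulators that work with these motors, 5 were lower and 0 higher in edgeR (1 higher at an unadjusted p under 0.05, and 1 by DESeq2), with a median of -0.26. The edgeR shares of all tested genes were 13.0% lower and 12.7% higher. Past both thresholds were Mki67 (-2.57, edgeR adjusted p = 0.00825), which coats mitotic chromosomes, and Cenpf (-1.80, adjusted p = 0.00825), a kinetochore protein. With the length offset Mki67 was at -1.52 (adjusted p = 0.0217) and Cenpf at -0.77 (adjusted p = 0.0265), and without control 2 Cenpf was at -1.48. None of the 4 direct partners named next passed the test. Racgap1, which joins Kif23 in centralspindlin, had a log2 fold change of -0.25, Prc1, the midzone partner of Kif4, one of -0.38, Tpx2, which binds Kif11 and Kif15, one of -0.49 (adjusted p = 0.0508), and Aurkb, carried by Kif20a, one of -0.011. With the offset, 3 of the 21 were lower, beside 3.64% of all genes, and the median was -0.32.

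Of 18 adaptors and light chains of the transport motors, edgeR called 0 lower (1 at an unadjusted p under 0.05) and 1 higher, beside 13.0% and 12.7% of all genes. The 1 was Fez1 (0.77, adjusted p = 0.0150), a call that ended without control 2 and without irradiated 2 (adjusted p = 0.0528). DESeq2 called 1 lower and 2 higher. The median log2 fold change of the list in edgeR was 0.079. In limma on log2(TPM + 1), 5 were lower (19.0% of all genes) and 0 higher (4.91%), with a median of -0.29. These genes were shorter than the transport kinesins, with a median of 2708 against 5635 bases, and the part of length in the contrast was not tested. Kifap3, the subunit that links Kif3a and Kif3b to cargo, had a log2 fold change of -0.23, and the kinesin light chains Klc1 and Klc2, which load cargo on the Kif5 motors, had 0.46 and 0.11, and none of the 3 passed edgeR's test. Of 24 genes of cytoplasmic dynein and dynactin, the motor that walks the other way, 2 were lower and 3 higher, with a median of 0.16. Among all tested genes 13.0% were lower and 12.7% higher. Dync1h1, the dynein heavy chain, was the one past both thresholds on the lower side (-2.22, edgeR adjusted p = 0.00919) and Dctn3, a dynactin subunit, the one on the higher side (1.60, adjusted p = 0.0103), and with the length offset Dync1h1 stood at -0.96 (adjusted p = 0.0531) and Dctn3 at 1.04 (adjusted p = 0.0277). Without control 2 neither was past both thresholds, with log2 fold changes of -1.34 for Dync1h1 and 1.30 for Dctn3.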

How the data were processed

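The authors quantified bulk RNA-seq reads of KP1 cells with Salmon at default settings on mm10, and the submitters' processing notes give Salmon 0.8.2 and DESeq2 1.22.2. Per library the authors deposited expected counts (estimated reads per transcript, not scaled), TPM (scaled by Salmon for transcript length and to the same total in each library) and the length and effective length of each transcript in bases. The annotation release and the strand of the libraries are not given in the sources used here.

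Transcripts were matched by identifier to GENCODE M21 (112762 of 113116), and expected counts and TPM were summed to 35056 genes. Kinesins were sorted by known role into mitotic (11), neuronal transport (11), other carriers (4), and depolymerases, cilium motors and others (12). The members and lists were chosen with earlier results of these data known. Counts were rounded to whole numbers, filtered with filterByExpr, scaled by TMM and tested with edgeR 4.0.16 (R 4.3.3) in a quasi-likelihood fit of irradiated against control, with Benjamini-Hochberg adjustment over 14106 genes, which was also tested on simulated data. The study's thresholds (adjusted p under 0.05, log2 fold change beyond 1.5) were used beside the adjusted p alone. The transcript length offset was a natural spline with 5 degrees of freedom of each library's deviation in log2 CPM on log2 length, a gene's length being the mean over its transcripts weighted by TPM. Alternatives were DESeq2 1.42.0, limma 3.58.1 on log2(TPM + 1), other scalings, filters and transcript sets, a replicate block and leaving out each library.

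No transcript of another gene matched a kinesin at 95% identity over 80% of its length (BLAST 2.17.0), and the pseudogenes Kif22-ps, Kif4-ps and Kifc5c-ps had 0 reads. Genes were named by rule. Every mitotic and transport kinesin was given in each library, together with other kinesins past both thresholds or among the 4 highest of their list in controls, and other genes were named if past both thresholds, as direct partners of a motor or as sole calls of a list. Confidence intervals are 95% intervals of the edgeR fit.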

Additional observations from a re-analysis of the deposited data

How the results depend on the processing

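Median log2 fold changes of the mitotic kinesins stayed below 0 under every alternative run. They moved by more than the spread, 0.19 as the SD over the 3 irradiated libraries of the median against the control mean, with the length offset (-0.48), with that offset weighted by reads (-0.53) and in limma on log2(TPM + 1) or log2(TPM + 0.5) (-1.04 in both). The median of the transport kinesins changed sign with the length offset (0.067), with lengths weighted by reads (0.024) and with the replicate block and the length offset together (0.017), and was -0.90 on either TPM scale. The summed mitotic TPM was 57.6% of control with protein-coding transcripts alone. The cause of these moves was not tested, apart from the offset, which removes the trend on length by construction.

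Counts of kinesins called lower went from 15 to 6 with the length offset and to 5 with lengths weighted by reads, which each called 1 higher. Past both thresholds the 3 (beside 1.90% of all genes) became 0 with the length offset (0.822%) and with lengths weighted by reads (0.553%). They became 1 with the GC content offset (1.64%). They were also 0 with library size alone and effective length offsets, and 1 with upper-quartile factors and no filter on low counts. With a threshold of 1 on the log2 fold change they were 6. Shares of all genes are not given for the settings without one here, so a change of the kinesins alone cannot be read from those counts. Leaving out 1 library gave 4 to 13 lower, 0 to 3 past both thresholds, and, with the length offset, 0 to 7 lower and 0 to 1 higher.

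The numbers 2 and 3 are shared by both groups, and the labels do not say whether equal numbers mark a pair. Over all tested genes the difference between replicates 2 and 3 in control had a correlation of -0.20 with that in irradiated libraries. This correlation cannot settle the pairing, since the libraries also differed in transcript length. The mean length was 5463 bases in control 2 and 4729 bases in control 3, but 3625 bases in irradiated 2 and 3998 bases in irradiated 3. With the replicate block, edgeR called 7 kinesins lower (3.50% of all genes) and 0 higher (0 at an unadjusted p under 0.05), 5 of them mitotic and 0 transport kinesins (6 of these at an unadjusted p under 0.05). With the replicate block and the length offset together it called 2 lower, Kif23 and Kif24 (0.135% of all genes), 0 past both thresholds and 0 higher. With the numbers crossed, the block called 22 lower (18.9% of all genes) and 1 higher (21.5%).

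Signs of single genes also turned, among them those of Kif1b and Kif21b, which were called lower without the offset. With the transcript length offset, the values were Kif18a 0.10, Kif20a 0.17, Kif22 -0.17, Kif1b 0.016, Kif21a 0.067, Kif21b 0.00013, Kif3b 0.60, Kif5b 0.16, Kif5c 0.23, Kif16b 0.20, Kif1c 0.24 and Kif7 0.13. Lengths weighted by reads gave Kif18a 0.022, Kif20a 0.050, Kif22 -0.22, Kif1b 0.012, Kif21a 0.048, Kif3b 0.50, Kif5b 0.11, Kif5c 0.26, Kif13a 0.096, Kif16b 0.14, Kif1c 0.20 and Kif7 0.025. The replicate block gave Kif22 -0.069, Kif3c -0.015 (-0.016 with crossed numbers) and Kif7 0.12, and with the length offset Kif20a 0.14, Kif22 -0.25, Kif21b 0.22, Kif3b 0.41, Kif5b 0.096, Kif5c 0.017, Kif16b 0.091, Kif1c 0.36 and Kif7 0.52. The GC content offset turned Kif18a to 0.44, Kif22 to -0.094, Kif17 to -0.23, Kif3b to 0.044 and Kif3c to -0.018, and effective length offsets turned Kif17 to -0.038, Kif3b to 0.054, Kif3c to -0.14 and Kif27 to 0.37. On the TPM scale with a pseudocount of 1, Kif22 stood at -0.34, Kif17 at -0.37 (-0.39 with 0.5), Kif3c at -0.48, Kif19a at -0.18 and Kif1bp at -0.031. Upper-quartile factors turned Kif18a to 0.025 and Kif3b to 0.050, library size alone turned Kif18a to 0.055, Kif20a to 0.0085 and Kif3b to 0.074, no filter turned Kif18a to 0.015 and Kif3b to 0.039, and protein-coding transcripts alone turned Kif18a to 0.074. Kif22 was -0.00015 with those transcripts, -0.0060 with DESeq2 and with RLE factors, -0.016 with a CPM of at least 1 in 2 libraries and -0.0015 with protein-coding genes alone. Without 1 library the ranges that crossed 0 were -0.20 to 0.11 for Kif18a, -0.23 to 0.17 for Kif20a, -0.14 to 0.21 for Kif22, -0.25 to 0.21 for Kif17, -0.19 to 0.12 for Kif3b, -0.016 to 0.12 for Kif3c and -0.58 to 0.19 for Kif7.

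Calls over all genes fell together with those of the kinesins, from 13.0% lower to between 1.20% and 13.4% without 1 library. With 2 control libraries that differed from each other in transcript length, the spread within a group is poorly known. The depth of 21185956 reads or more per library limits the members with few reads.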
